A study of Mus musculus with 8 samples.

Results

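The arcuate feeding peptides and their receptors were followed as 10 genes out of 24421 gene rows in the count tables. They comprised the peptide genes Agrp, Npy, Pomc and Cartpt, the melanocortin receptor genes Mc3r and Mc4r, the neuropeptide Y (NPY) receptor genes Npy1r, Npy2r and Npy5r, and the ghrelin receptor gene Ghsr. The genes were chosen by symbol for their place in this pathway, with earlier results of these data known. All 10 had enough counts to be tested. The 8 libraries came from C57BL/6 mice that all carried Otp-Cre and the ROSAfsTRAP allele, which tags ribosomes in cells with a history of Otp expression so that their bound RNA can be purified from hypothalamus and medial amygdala. The 4 KO libraries carried floxed Cic on both chromosomes in addition (Cicflox/flox), and the 4 Control libraries had no floxed Cic allele. The labels number the replicates but do not say whether each was 1 animal, nor give age or sex, so the tests measure the spread between these libraries. Cic encodes the DNA-binding repressor Capicua, the partner of ATXN1, and the comparison asks what its loss in Otp-lineage neurons does to expression.

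Hunger and satiety are balanced in the arcuate nucleus by 2 groups of neurons. AgRP neurons release AgRP and NPY, which promote eating, and POMC neurons release alpha-MSH, which is cut from the POMC precursor and reduces eating, while CART is made by many POMC neurons and by neurons elsewhere in the hypothalamus. Alpha-MSH activates the melanocortin receptors MC3R and MC4R and AgRP blocks them. NPY acts through NPY1R and NPY5R on target neurons and through NPY2R, often on the NPY neurons themselves, and the gut hormone ghrelin excites AgRP neurons through GHSR. Purification leaves some RNA of other cells in such samples, and fewer cells of a type and less RNA per cell cannot be told apart.

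Libraries held 33223878 to 49587839 gene counts in KO and 38171319 to 57300362 in Control. Cic itself had 34.5 to 59.3 CPM (counts per library size after TMM scaling) in KO and 72.4 to 103 in Control, so every library went with its label (-1.10 in log2, SE 0.16, edgeR adjusted p = 0.00220). Otp was low, at 2.28 to 8.55 CPM, and its lineage partner Sim1 had 11.2 to 31.6 CPM. RNA of other cells was present in every library: 14 oligodendrocyte markers summed to 1785 to 3271 CPM in KO and 2796 to 3581 in Control. A set of 19 pituitary genes summed to 1890 CPM in KO replicate 2 against 97.9 to 138 in the other 7 libraries. KO replicate 4 had the fewest gene counts and the highest share of alignments that were not unique, 81.9% against 63.3% to 75.5% elsewhere.

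None of the 10 genes passed the test between KO and Control. The count was 0 at an edgeR adjusted p of 0.05 and 0 at an unadjusted p of 0.05, against 0.259% and 10.6% of the 15438 genes tested. By direction the adjusted calls were 0.194% of genes upward in KO and 0.0648% downward. DESeq2 also called 0 of the 10. Adjusted p ran from 0.514 to 0.986, 7 log2 fold changes were positive and 3 negative, and the median was 0.08 against 0.02 for all genes tested. The 4 peptides had a median of -0.19 with 3 of 4 negative, and the 6 receptors a median of 0.15 with 6 of 6 positive, where 53.8% of all genes tested were positive. No member was without overlap between the groups, a separation that 5.93% of all genes tested showed (3.01% higher and 2.91% lower in KO). The 95% interval from the edgeR fit lay within a 2-fold change in either direction for 8 of the 10, all but Agrp and Pomc.

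**Figure D1:**
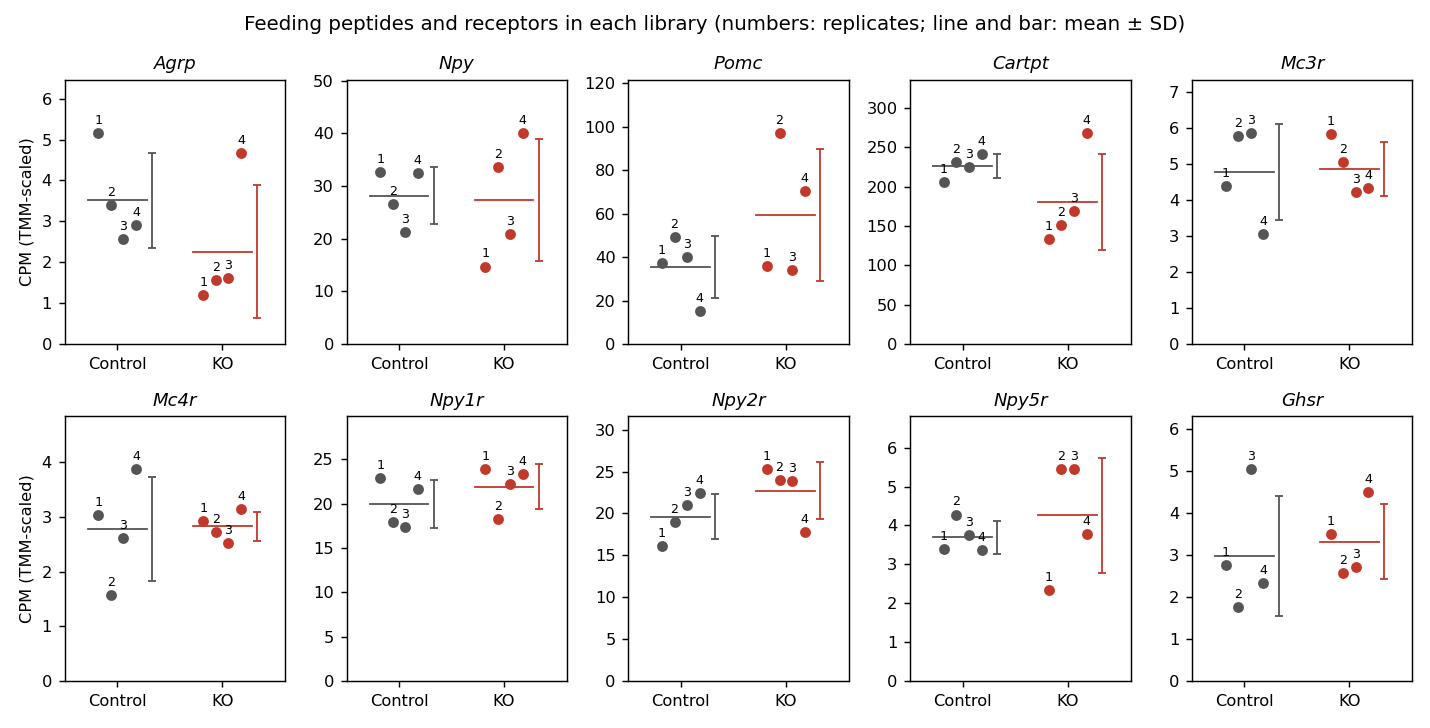
TMM-scaled CPM (linear axis from 0) of the 10 genes in the 4 Control (grey) and 4 KO (red) libraries, numbered by replicate; the line is the mean and the bar beside it ± SD. Every panel shows overlap of the groups, with KO replicate 4 apart from the other 3 KO libraries for Agrp and Cartpt.

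**Figure D2:**
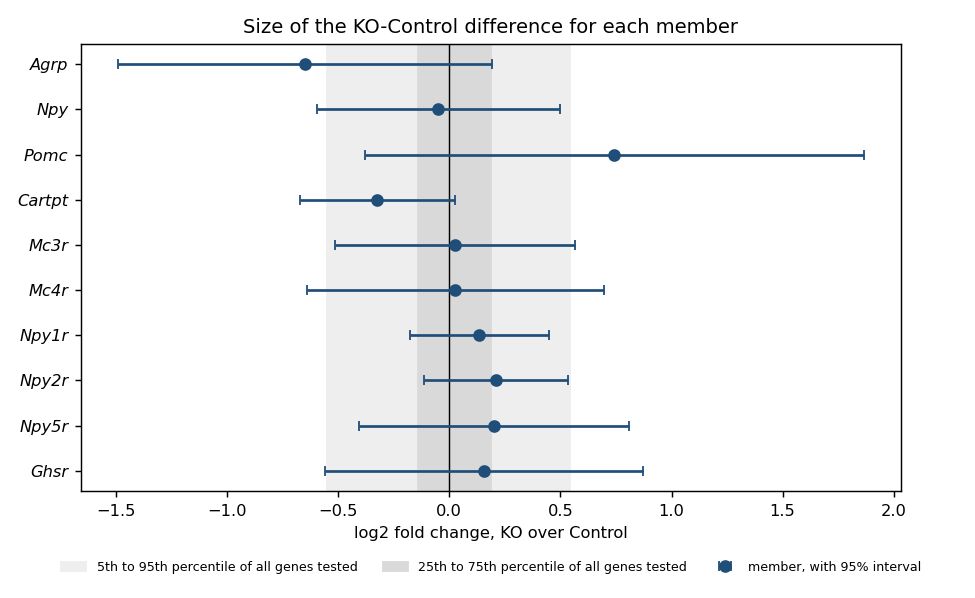
Log2 fold change of KO over Control for each gene (points) with its 95% interval from the edgeR fit (bars), over the 5th to 95th (light) and 25th to 75th (dark) percentiles of all 15438 genes tested. All 10 intervals include 0, and those of Agrp and Pomc are widest.

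The promoters of 3 peptide genes are shown because Capicua acts by binding DNA at octamers such as TGAATGAA and TGAATGGA. Each is the window from 250 bases before to 50 bases after the RefSeq start on GRCm38.p6, in the direction of transcription, with capitals for matches to the motifs named below. Npy is on the plus strand at chr6:49822460-49822759, Pomc on the plus strand at chr12:3954695-3954994 and Cartpt on the minus strand at chr13:99900634-99900933.
Npy: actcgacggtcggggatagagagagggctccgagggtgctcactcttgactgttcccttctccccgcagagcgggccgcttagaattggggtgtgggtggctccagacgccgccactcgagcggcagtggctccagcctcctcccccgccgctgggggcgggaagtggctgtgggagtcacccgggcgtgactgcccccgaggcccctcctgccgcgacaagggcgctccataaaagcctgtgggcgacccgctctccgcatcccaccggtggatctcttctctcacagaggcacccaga
Pomc: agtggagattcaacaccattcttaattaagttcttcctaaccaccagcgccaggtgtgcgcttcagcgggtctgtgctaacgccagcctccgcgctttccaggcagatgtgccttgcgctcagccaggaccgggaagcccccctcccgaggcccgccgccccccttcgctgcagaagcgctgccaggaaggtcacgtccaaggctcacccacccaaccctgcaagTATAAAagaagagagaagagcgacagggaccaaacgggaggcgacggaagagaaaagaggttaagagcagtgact
Cartpt: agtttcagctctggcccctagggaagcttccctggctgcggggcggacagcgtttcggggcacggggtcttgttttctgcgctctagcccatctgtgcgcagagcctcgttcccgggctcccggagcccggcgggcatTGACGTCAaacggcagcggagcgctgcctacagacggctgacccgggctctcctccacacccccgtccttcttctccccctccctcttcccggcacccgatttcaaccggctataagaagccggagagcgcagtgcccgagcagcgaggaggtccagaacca
Neither octamer was found on either strand in the windows of the 8 members matched in the RefSeq table (all but Agrp and Mc4r). Of 32851 such windows over all genes, 2.47% hold TGAATGAA or TGAATGGA. The capitals in Pomc mark TATAAA, 25 bases before the start, which 13.6% of all windows hold on either strand. Those in Cartpt mark TGACGTCA, the palindromic cyclic AMP response element, which begins 112 bases before the start and is held by 1.79% of windows. A match or its absence describes these letters in this window.

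Agrp, the peptide that blocks melanocortin receptors, was low in 3 of the 4 KO libraries. It had 1.20, 1.56, 1.61 and 4.68 CPM in KO replicates 1 to 4 and 5.17, 3.41, 2.57 and 2.91 CPM in Control replicates 1 to 4. KO replicates 1 to 3 lay below every Control library, whereas KO replicate 4 lay above 3 of the 4 Controls. The means were 2.26 ± 1.62 and 3.51 ± 1.16 CPM (SD, n = 4 each), a log2 fold change of -0.65 (SE 0.40, 95% interval -1.49 to 0.19, edgeR adjusted p = 0.616). The exact two-sided permutation p was 0.143, where 4 against 4 cannot go below 0.0286. Without KO replicate 4 the KO mean was 1.46 ± 0.226 CPM and the log2 fold change -1.28, and without Control replicate 1 the change was -0.40. Neither passed (edgeR adjusted p = 0.120 and 0.914, the lowest and highest over all alternatives). Agrp held 58 to 302 counts per library, the lowest count of any member among them, and the 95% Poisson interval for counting error alone was 0.908 to 1.55 CPM in KO replicate 1 and 3.97 to 5.49 CPM in KO replicate 4. In GENCODE M21 (GRCm38) Agrp (ENSMUSG00000005705.10) spans chromosome 8 from 105566698 to 105637393 on the minus strand. That span takes in distal upstream exons, 1 of which shares 114 bp with exons of Ctcf on the opposite strand and of the noncoding Gm5914, so reads there are uncertain.

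Npy, the appetite-promoting peptide of the same neurons and of many neurons outside the arcuate nucleus, had near-equal means. It measured 14.7, 33.6, 20.9 and 40.1 CPM in KO replicates 1 to 4 and 32.6, 26.6, 21.2 and 32.4 CPM in Control. The KO libraries surrounded the Controls, 2 above and 2 below all of them. The means were 27.3 ± 11.6 and 28.2 ± 5.44 CPM (SD, n = 4 each), with a log2 fold change of -0.05 (SE 0.25, 95% interval -0.59 to 0.50, edgeR adjusted p = 0.969). Npy (ENSMUSG00000029819.6) lies on chromosome 6 from 49822710 to 49829507.

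Pomc, the precursor of alpha-MSH, had the largest positive log2 fold change of the 10, and its spread was wide in both groups. It measured 35.8, 97.3, 34.2 and 70.2 CPM in KO replicates 1 to 4 and 37.4, 49.2, 40.1 and 15.3 CPM in Control. KO replicates 2 and 4 exceeded every Control library, KO replicates 1 and 3 lay within the Control range, and Control replicate 4 was lowest of all 8. The means were 59.4 ± 30.2 and 35.5 ± 14.4 CPM (SD, n = 4 each), a log2 fold change of 0.74 (SE 0.47, 95% interval -0.38 to 1.86, edgeR adjusted p = 0.667, exact permutation p = 0.286). Pomc (ENSMUSG00000020660.6) is a plus-strand gene of chromosome 12, from 3954951 to 3960642.

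The library with most Pomc was also the library with pituitary RNA. The pituitary makes Pomc in its corticotrophs and melanotrophs. In KO replicate 2 growth hormone (Gh) had 1465 CPM, prolactin (Prl) 207 CPM, the glycoprotein hormone subunit Cga 60.8 CPM and Fshb 16.1 CPM. In the other 7 libraries Gh had 0 to 2.62 CPM and Prl 0 to 0.0616 CPM. Prl was at 0 counts in all 4 Controls, where 3 counts, the limit that a count of 0 allows, equal 0.0513 to 0.0794 CPM. Pou1f1, the factor of the Gh and Prl cells, had 2.99 CPM in KO replicate 2 and 0 to 0.0308 CPM elsewhere. Tbx19, the factor of the Pomc-producing pituitary cells, had 1.61 CPM in KO replicate 2, the highest of the 8, with 1.54 CPM next in Control replicate 3. Pax7, which marks melanotrophs, was also highest there, at 1.97 CPM against 0.479 to 1.83 CPM in the others. Without KO replicate 2 the KO mean of Pomc was 46.7 ± 20.3 CPM (SD, n = 3) and the log2 fold change fell to 0.39 (edgeR adjusted p = 0.825). KO replicate 4, at 70.2 CPM of Pomc, had a pituitary sum of 138 CPM, just above the Control range of 97.9 to 129. With Gh and Prl near 0 in the 7 libraries other than KO replicate 2, their sums came mostly from the rest of the list. Crhr1, for example, had 4.70 to 6.96 CPM in KO and 7.48 to 9.13 in Control, itself a small part of these sums. A sum of this size therefore does not show whether pituitary RNA was present. The part of pituitary RNA in the Pomc level of KO replicate 2 was not tested. Control replicate 4, lowest in Pomc, had a sum of 153 CPM over 17 arcuate transcription factors against 177 to 181 in the other Controls. Its 7 choroid plexus markers summed to 556 CPM against 18.9 to 82.9 there. The part of these in its low Pomc was not tested. Without Control replicate 4 the log2 fold change of Pomc was 0.49 (edgeR adjusted p = 0.801).

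**Figure D3:**
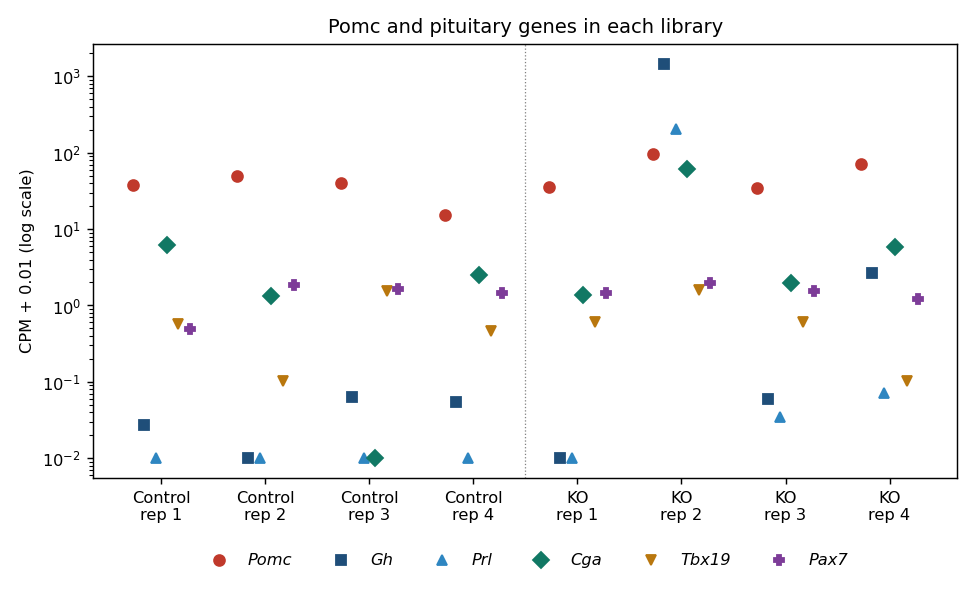
CPM plus 0.01 on a log axis of Pomc and 5 pituitary genes in each of the 8 libraries (points at the foot are 0 counts). Gh at 1465 and Prl at 207 CPM stand out in KO replicate 2, whereas Tbx19 at 1.61 and Pax7 at 1.97 CPM there lie just above the highest of the other 7 libraries.

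Cartpt, which encodes the satiety peptide CART, was the most abundant of the 10 and came nearest to the threshold. It measured 133, 151, 169 and 268 CPM in KO replicates 1 to 4 and 206, 232, 225 and 242 CPM in Control. As for Agrp, KO replicates 1 to 3 lay below every Control library, and KO replicate 4 here lay above all of them. The means were 180.5 ± 60.4 and 226 ± 15.0 CPM (SD, n = 4 each), a log2 fold change of -0.32 (SE 0.17, 95% interval -0.67 to 0.02, edgeR adjusted p = 0.514, exact permutation p = 0.143). The result hung on 1 library: without KO replicate 4 the KO mean was 151 ± 18.0 CPM (n = 3), and Cartpt fell by 0.59 on the log2 scale (edgeR adjusted p = 0.0365, range over all alternatives 0.0365 to 0.755). Without KO replicate 1 the change was -0.21 (edgeR adjusted p = 0.691). Leaving out KO replicate 4 was the only setting of 17 in which any member passed. Cartpt (ENSMUSG00000021647.7) lies on chromosome 13 from 99898489 to 99901091 on the minus strand.

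**Figure D4:**
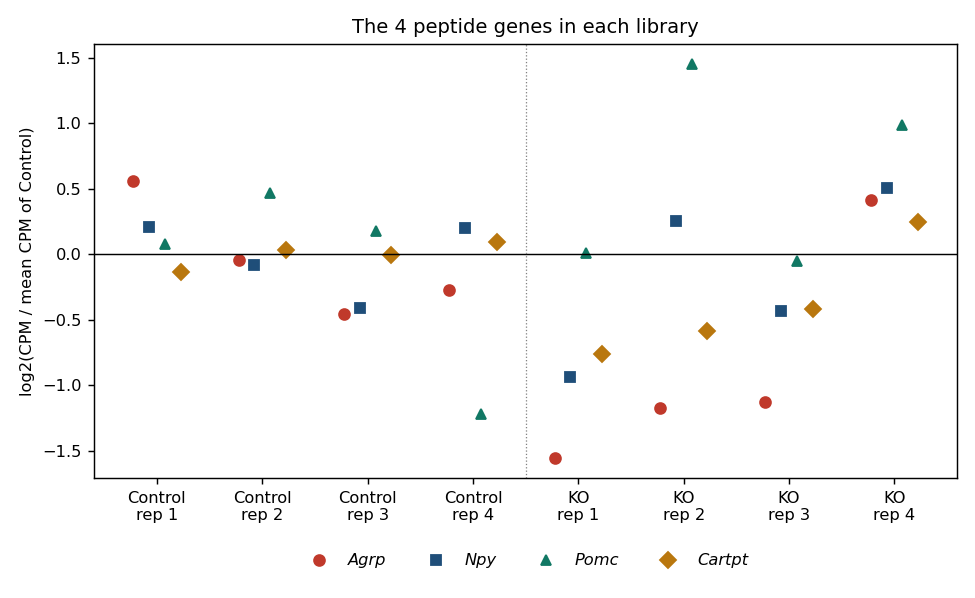
Log2 ratio of each library's CPM to the Control mean for the 4 peptide genes, by library. KO replicate 4 is the highest KO library for Agrp, Npy and Cartpt and KO replicate 1 the lowest for those 3, while Pomc peaks in KO replicate 2.

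No pair of peptides passed a test of correlation across libraries after adjustment. KO replicate 4 was the highest KO library for 3 of the 4 peptides and KO replicate 1 the lowest for 3. Over the 8 libraries log2 CPM of Agrp and Cartpt correlated at Pearson r = 0.85 (exact permutation p = 0.0105, adjusted over 7 pairs 0.0734) and Spearman rho = 0.74 (exact permutation p = 0.0458, adjusted 0.321), so the relation did not pass after adjustment. Pearson r was 0.95 without the 2 libraries farthest from the median of Agrp, KO replicate 1 and Control replicate 1. KO replicate 4 stayed in. On deviations from the group means r was 0.78. Within the groups of 4 libraries, too few for a test, r was 0.99 in KO and -0.78 in Control, so the positive relation was that of the KO libraries. Agrp and Npy, products of the same neurons, gave r = 0.70 (exact permutation p = 0.0551, adjusted 0.193), rho = 0.57 (exact permutation p = 0.151, adjusted 0.353) and 0.47 without the farthest 2. Npy and Pomc gave r = 0.27 (exact permutation p = 0.520, adjusted 0.729), rho = 0.60 (exact permutation p = 0.132, adjusted 0.353) and 0.21 without the farthest 2. Npy and Cartpt gave r = 0.61 (exact permutation p = 0.105, adjusted 0.244), rho = 0.50 (exact permutation p = 0.216, adjusted 0.378) and 0.02 without the farthest 2, so r rested on those libraries. The remaining pairs were negative in r: Agrp and Pomc gave -0.02 (exact permutation p = 0.953, adjusted 0.953) with rho = 0.12 (exact permutation p = 0.793, adjusted 0.882), and -0.07 without the farthest 2. Pomc and Cartpt gave -0.17 (exact permutation p = 0.685, adjusted 0.799) with rho = 0.07 (exact permutation p = 0.882, adjusted 0.882), and 0.77 without the farthest 2, Control replicate 4 and KO replicate 2.

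Ratios between members, which do not depend on library scaling, did not pass after adjustment over the 6 examined, where 4 against 4 cannot go below 0.0286 before adjustment and so no single ratio could pass. Agrp reads per Npy read were 0.0811, 0.0465, 0.0771 and 0.117 in KO replicates 1 to 4 and 0.158, 0.128, 0.121 and 0.0898 in Control. The ratio was below the Control range in 3 of 4 KO libraries (mean log2 ratio -3.71 ± 0.546 against -3.04 ± 0.338, SD, 4 libraries each, exact permutation p = 0.0571, adjusted 0.114), and the log2 difference of -0.68 was -0.44 without KO replicate 2 and -0.42 with 1 CPM added. Pomc reads per Agrp read were 29.9, 62.3, 21.3 and 15.0 in KO and 7.24, 14.4, 15.6 and 5.25 in Control (log2 difference 1.53, exact permutation p = 0.0571, adjusted 0.114, n = 4 each). Here too KO replicate 4 was the 1 KO library inside the Control range. The highest value, 62.3, was that of KO replicate 2, the library with pituitary RNA, without which the difference was 1.14. Cartpt reads per Pomc read were 3.72, 1.55, 4.95 and 3.82 in KO and 5.51, 4.70, 5.62 and 15.8 in Control, where replicate 4 stood apart (log2 difference -1.10, exact permutation p = 0.0571, adjusted 0.114, n = 4 each). Without that library the difference was -0.70. The lowest Cartpt to Pomc value, 1.55, was again that of KO replicate 2. The part of pituitary RNA in these ratios was not tested. The 3 receptor ratios differed by -0.07 to 0.01 in log2 between the groups (exact permutation p = 0.714 to 1, n = 4 each).

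The melanocortin receptors had near-equal means in KO and Control. Mc3r measured 5.83, 5.05, 4.23 and 4.34 CPM in KO and 4.40, 5.79, 5.88 and 3.07 CPM in Control, with all KO libraries inside the Control range. Its log2 fold change was 0.03 (SE 0.26, 95% interval -0.51 to 0.57, edgeR adjusted p = 0.984). Mc4r, the receptor whose loss causes obesity in mice and people, measured 2.93, 2.73, 2.52 and 3.14 CPM in KO and 3.03, 1.58, 2.62 and 3.87 CPM in Control. KO libraries again lay within the Control range, and the SD was 0.265 CPM in KO and 0.954 in Control. Its log2 fold change was 0.03 (SE 0.32, 95% interval -0.64 to 0.70, edgeR adjusted p = 0.986). Both genes have 1 exon, Mc3r (ENSMUSG00000038537.1) on chromosome 2 from 172248492 to 172251114 and Mc4r (ENSMUSG00000047259.3) on chromosome 18 from 66857704 to 66860506.

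The NPY receptors showed small positive differences within the replicate spread. Npy1r measured 23.9, 18.2, 22.2 and 23.3 CPM in KO and 22.9, 17.9, 17.3 and 21.6 CPM in Control, a log2 fold change of 0.14 (SE 0.15, 95% interval -0.18 to 0.45, edgeR adjusted p = 0.820). KO replicates 1 and 4 lay just above the Control range. For Npy2r, the receptor by which NPY neurons inhibit themselves, the values were 25.3, 24.0, 23.9 and 17.7 CPM in KO and 16.1, 19.0, 21.0 and 22.4 CPM in Control. Of the KO libraries 3 lay above every Control, and KO replicate 4 below 3 of them (0.21 in log2, SE 0.15, 95% interval -0.11 to 0.54, edgeR adjusted p = 0.696, exact permutation p = 0.229). Npy5r measured 2.35, 5.44, 5.44 and 3.79 CPM in KO and 3.39, 4.28, 3.76 and 3.38 CPM in Control (0.20 in log2, SE 0.29, 95% interval -0.41 to 0.81, edgeR adjusted p = 0.872). KO replicates 2 and 3 were above and KO replicate 1 below every Control. Without 1 library Npy1r ran from 0.07 to 0.21, Npy2r from 0.13 to 0.31 and Npy5r from 0.05 to 0.39 in log2.

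Npy1r and Npy5r lie head to head on chromosome 8, with RefSeq starts 9328 bp apart. Npy1r (ENSMUSG00000036437.6) spans 66697192 to 66706792 on the plus strand and Npy5r (ENSMUSG00000044014.9) 66679965 to 66688128 on the minus strand. The correlation of their levels over the 8 libraries was negative and did not pass (r = -0.48, exact permutation p = 0.236, adjusted over 7 pairs 0.413, rho = -0.38, exact permutation p = 0.360, adjusted 0.504, r = -0.67 without the 2 farthest libraries). Npy2r (ENSMUSG00000028004.12) lies on chromosome 3 from 82538383 to 82548084 on the minus strand. Ghsr (ENSMUSG00000051136.1) is a plus-strand gene of the same chromosome, from 27371351 to 27378010.

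Ghsr, the ghrelin receptor, measured 3.48, 2.57, 2.70 and 4.50 CPM in KO and 2.76, 1.76, 5.03 and 2.33 CPM in Control. All KO libraries lay within the Control range (0.16 in log2, SE 0.34, 95% interval -0.56 to 0.87, edgeR adjusted p = 0.918).

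Per kilobase of exon, the peptide genes stood above the receptor genes, except Agrp. In Control the order was Cartpt at 177 ± 11.7 CPM per kb, Npy at 49.8 ± 9.61, Pomc at 31.1 ± 12.6, Npy2r at 5.80 ± 0.809, Npy1r at 5.77 ± 0.792 and Agrp at 4.30 ± 1.42 (SD, n = 4). Below them came Mc3r at 1.82 ± 0.507 CPM per kb, Npy5r at 1.45 ± 0.166, Mc4r at 0.990 ± 0.340 and Ghsr at 0.670 ± 0.323. Neighbours overlapped in range except at 3 steps, between Cartpt and Npy, between Pomc and Npy2r, and between Agrp and Mc3r. Agrp was 41.1-fold below Cartpt in Control on this scale, with the exon length of Agrp uncertain as described above. The KO order was the same but for Pomc (52.0 ± 26.5 CPM per kb) and Npy (48.3 ± 20.5), whose places changed within overlapping ranges. Without KO replicate 2, the library with pituitary RNA, Npy at 44.6 CPM per kb was again above Pomc at 40.9.

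**Figure D5:**
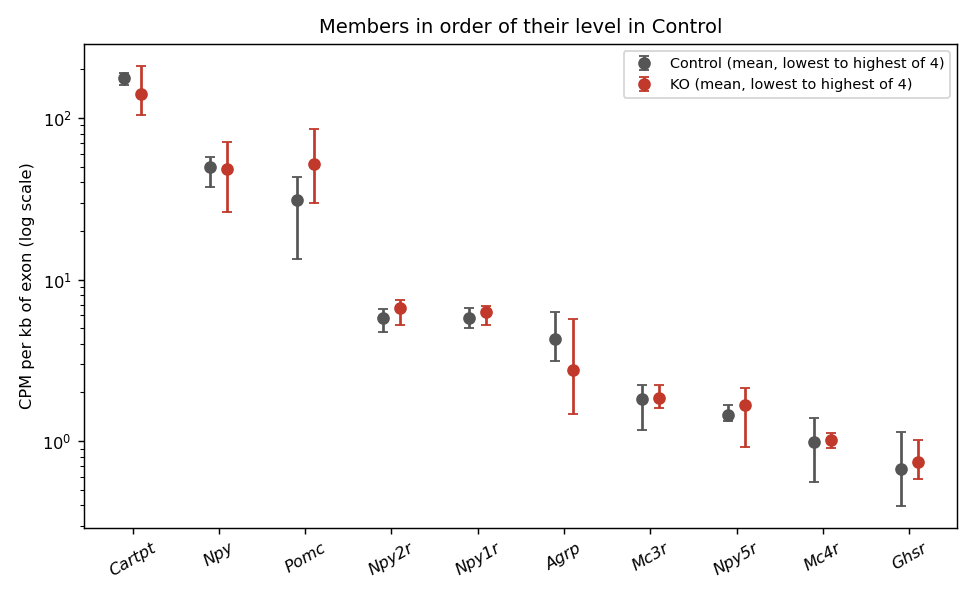
Mean CPM per kb of merged exon (log axis) of the 10 genes in Control (grey) and KO (red), with bars from the lowest to the highest of 4 libraries, ordered by the Control mean. Cartpt at 177 leads and Ghsr at 0.670 CPM per kb is lowest in Control.

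Other genes of these peptide systems did not pass the test either. Of 13 further ligands and receptors of the melanocortin, NPY and ghrelin families 12 had a row and 5 were tested, 4 with positive and 1 with negative log2 fold changes, and 0 passed. Npy4r, the receptor for pancreatic polypeptide, had 0.371 to 0.955 CPM in KO and 0.0235 to 0.205 in Control. It passed the filter on low counts only through its KO libraries, so it had to differ. Its values are a description, and its place among the 4 positive genes was fixed by the filter. Gpr75 was abundant for this list, at 27.6 to 40.8 CPM in KO and 30.8 to 33.7 in Control (0.18 in log2, edgeR adjusted p = 0.717, and 0.11 without KO replicate 2). Of 12 accessory and coupling proteins of the receptors 11 were tested and 0 passed, 7 positive and 4 negative (median 0.06). Gnas, which encodes the stimulatory G protein through which melanocortin receptors signal, had 3860 ± 258 CPM in KO and 3513 ± 118 in Control (0.14 in log2, edgeR adjusted p = 0.732). Gnaq, which encodes the G protein of the ghrelin receptor, was at 0.16 in log2, and at 0.06 without KO replicate 3. Atrn and Atrnl1, the attractin genes, were at 0.24 and -0.26 (edgeR adjusted p = 0.567 and 0.440), and Atrn at 0.10 without KO replicate 2.

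Among 12 genes that process prohormones 10 were tested and 0 passed, 4 positive and 6 negative (median -0.04). Cpe, the carboxypeptidase that trims POMC and NPY products, had 1034 ± 461 CPM in KO and 1249 ± 97.5 in Control (SD, n = 4 each, -0.27 in log2, edgeR adjusted p = 0.762). By library it had 727, 1125, 635 and 1648 CPM in KO, with KO replicate 4 highest, as for Agrp and Cartpt, and without that library its change was -0.60 (edgeR adjusted p = 0.105). The inhibitor gene Pcsk1n was at 0.24 (edgeR adjusted p = 0.654), a value carried by KO replicate 4, without which it was 0.01. The convertase gene Furin was at -0.23 (edgeR adjusted p = 0.762), and at -0.10 without KO replicate 1. Of 17 transcription factors listed for arcuate AgRP and POMC neurons 16 were tested and 0 passed. The log2 fold changes were positive for 14 and negative for 2, with a median of 0.39 against 0.02 over all genes tested. The list is wider than these neurons. Its Nr5a1 (0.45) also stands among the markers of hypothalamus outside the Otp lineage, and its Rax (0.43) among those of ependymal cells and tanycytes. Marker lists of cell types went in both directions. Microglia were positive for 1 of 10 (median -0.46) and ependymal cells and tanycytes for 2 of 11 (-0.22). Astrocytes were positive for 3 of 10 (-0.10) and medial amygdala for 6 of 10 (0.21). Other neurons of the arcuate nucleus were positive for 5 of 11 (-0.01) and cortical interneurons that express Npy for 3 of 8 (-0.20). Cortical and hippocampal neurons were positive for 3 of 7 (-0.16) and striatal neurons for 4 of 8 (0.01). Neuronal lists thus had no common direction. The Otp lineage list, which shares Otp and Nhlh2 with the factors, was positive for 6 of 6 (median 0.47), with sums of 221 to 360 CPM in KO and 213 to 289 in Control. Markers of hypothalamus outside that lineage were positive for 8 of 8 (median 0.24, sums of 78.3 to 112 CPM in KO and 51.2 to 97.9 in Control), and 0 of either list passed. Oligodendrocyte markers were positive for 0 of 14 (median -0.34). Of these Cldn11, a myelin tight junction gene named after its values were seen, fell from 49.2 ± 5.68 to 28.0 ± 7.56 CPM (SD, n = 4 each, edgeR adjusted p = 0.0375), a call lost without any 1 library except KO replicate 4 (adjusted p from 0.00128 to 0.158). The part of cell makeup in the values of the factors was not tested. Bsx, a homeobox factor required for normal Agrp and Npy expression, had 8.77 ± 0.993 CPM in KO and 5.12 ± 1.28 in Control (0.78 in log2, SE 0.22, edgeR adjusted p = 0.186). Its KO libraries, at 7.49 to 9.87 CPM, all exceeded the Control range of 3.33 to 6.38, a separation upward that 3.01% of all genes tested showed. Nhlh2 and Stat3 of the same list were separated upward as well. DESeq2 alone called Bsx (adjusted p = 0.0465), and the range of Bsx over all alternatives was 0.0465 to 0.466. Nhlh2, a factor of POMC neurons, had 19.7 ± 2.12 and 14.5 ± 1.84 CPM (0.44 in log2, SE 0.15, edgeR adjusted p = 0.296). Foxo1 and Nkx2-1, the most abundant of these factors, were at 0.14 and 0.27 in log2, and at 0.08 without KO replicate 1 and 0.08 without Control replicate 4.

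In 2 wider lists of feeding genes 1 gene each passed, where 0.259% of all genes tested did. The lists were chosen with earlier results of these data known, so these calls are a description. Of 27 tested peptides that act on feeding outside the 10 genes, Ucn3 (urocortin 3) rose from 13.8 ± 0.421 to 30.4 ± 5.98 CPM (SD, n = 4 each, edgeR adjusted p = 0.00119) and 26 did not pass. The log2 fold changes of the list were positive for 16 and negative for 11 (median 0.22). Vgf, a granule protein gene with peptides that act on feeding, was nearest to the threshold (0.70 in log2, SE 0.15, edgeR adjusted p = 0.0684). It passed with DESeq2 (adjusted p = 0.00637), with no filter (0.0328), with the replicate block (0.0424) and without KO replicate 3 (0.0176). The abundant Sst and Avp were at 0.51 and 0.43 in log2, and at 0.30 and 0.19 without KO replicate 4. Of 27 tested receptors, Hcrtr1, an orexin receptor gene, rose from 3.61 ± 0.351 to 14.1 ± 3.57 CPM (SD, n = 4 each, 1.97 in log2, SE 0.21, edgeR adjusted p = 8.54e-05) and 26 did not pass, with 22 positive and 5 negative (median 0.21). Next came Calcr, which encodes the calcitonin receptor through which amylin acts, at 0.71 (SE 0.19, edgeR adjusted p = 0.156), which passed with DESeq2 (adjusted p = 0.0466) and without Control replicate 3 (0.0374). The abundant Ntrk2, the BDNF receptor gene, was at 0.001 and Adcyap1r1 at 0.09. Of 11 tested markers of other arcuate neurons, Prlr, the prolactin receptor gene, chosen here after its values were seen, was the only 1 that passed (0.83, edgeR adjusted p = 0.0384). Its call was lost with total counts only (0.0537) and without any 1 library except Control replicate 3 and KO replicate 4 (adjusted p from 0.0180 to 0.146).

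The genes whose log2 CPM most resembled each peptide over the 8 libraries were found among 12881 tested genes of mean 1 CPM or more, and the r values are descriptions over libraries that share depth and dissection. For Agrp they were Ptpn2, Slc35b2, Gnb1l, Cst3 and Susd5 (r = 0.95 to 0.97). Cst3, the abundant secreted protease inhibitor cystatin C, had 328, 424, 344 and 610 CPM in KO and 572, 502, 455 and 491 in Control, with KO replicate 4 again highest in KO. For Npy they were Pcif1, Ifitm3, Mrps9, Apod and Hfm1 (r = 0.94 to 0.97), and for Cartpt Fabp7, Rangrf, Fmnl1, Pdlim7 and Ddrgk1 (r = 0.94 to 0.97). For Pomc they were Zswim3, Arxes1, N4bp2l1, Cant1 and S1pr1 (r = 0.94 to 0.98). Without KO replicate 2 their r was 0.90 to 0.97. These genes were chosen for high r over libraries that include the remaining ones. Their r therefore cannot show whether the likeness depends on KO replicate 2.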

How the data were processed

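Ribosome-bound RNA of Otp-lineage cells was sequenced in 4 KO and 4 Control libraries. The authors deposited unnormalized whole-number counts for each gene symbol. The submitters' processing notes name TopHat2 2.0.9, HTSeq, DESeq2 and the mm10 build. Other versions, the gene annotation and the strand setting: not given in the sources used here. The 92 ERCC and 5 counter rows were left out. Alignments that were not unique have a counter row of their own and enter no gene count. Without molecular identifiers, Poisson intervals cover counting error only. Chi-square per degree of freedom between libraries was 23.7 or more over 28 pairs, so no library repeats another.

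The test was the quasi-likelihood test of edgeR 4.0.16 under R 4.3.3 (filterByExpr with minimum count 10 and total 15, TMM, robust fit, no covariate), with Benjamini-Hochberg adjustment over 15438 genes and a threshold of 0.05. Every adjusted p of a gene comes from that fit unless DESeq2 1.42.0 is named. SE and 95% intervals come from the same fit. CPM were computed with TMM factors, and log2 CPM for correlations with 0.1 CPM added. Levels per kb used merged exons of the GENCODE M21 basic set. Single values were compared by exact two-sided permutation. The model was tested on simulated data, where it recovered 9 of 50 genes changed 1.5-fold and 40 of 50 changed 2-fold. False calls numbered 6 among 15272 genes tested. Alternatives changed the test, scaling, filter, block, abundant rows, dispersion and each library. The members and lists were chosen with earlier results of these data known. The text names all 10 members, Cic, and in each list the called genes, the 2 of smallest p and the 2 most abundant, plus the 5 genes most like each peptide; 1 gene that the rule picks is not reported here. Samples with the same replicate number are not stated to be paired.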

Additional observations from a re-analysis of the deposited data

Results flagged for a closer look

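Of 72 groups of 4 values examined (each member, ratio and marker sum in KO and in Control), 6 held a library far from the other 3, where chance gives about 1 in 20. Agrp in KO replicate 4 was 4.68 CPM, where KO replicates 1 to 3 had 1.20 to 1.61. The Cartpt to Pomc ratio in Control replicate 4 was 15.8 against 4.70 to 5.62. Control replicate 4 also stood apart in the summed CPM of arcuate transcription factors (153 against 177 to 181), of medial amygdala markers (288 against 332 to 337) and of choroid plexus markers (556 against 18.9 to 82.9). The pituitary sum in KO replicate 2 was 1890 CPM against 103 to 138.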

How the results depend on the processing

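Of 170 values of the 10 members under 17 alternatives, 156 kept their direction and side of the threshold, 13 changed sign and 1 (Cartpt without KO replicate 4) passed. The members called numbered 0 to 1 when 1 library was left out. Leaving out 1 library moved Npy from -0.30 to 0.15, Mc3r from -0.14 to 0.14, Mc4r from -0.17 to 0.23 and Ghsr from -0.0245 to 0.53 in log2. With upper-quartile factors Mc3r was -0.000993. All genes called numbered 40 in the main analysis, 198 with DESeq2 (119 higher and 79 lower, against 30 and 10), 26 with total counts only, and 14 to 53 without 1 library, namely 19, 17, 26 and 14 without Control replicates 1 to 4 and 26 without KO replicate 2. Upper-quartile factors gave 24 higher and 12 lower. The replicate block gave 65 (43 higher and 22 lower) and changed no call among the members. Deviations of same-numbered libraries correlated at -0.05 to 0.12, with 1 of 4 numbers best matched to its own. With so few libraries this cannot decide whether the numbers pair them. Called arcuate factors numbered 1 with DESeq2. Called peptides of the wider list numbered 2 with DESeq2, with no filter and with the replicate block, and 1 to 3 without 1 library. Called receptors numbered 2 with DESeq2 and with the replicate block, and 1 to 2 without 1 library.

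Ntrk2 was -0.00548 with DESeq2, -0.00589 with RLE factors, -0.0115 with total counts only, -0.00718 with no filter, -0.00938 without Rn45s (the tables hold no mitochondrial rows) and -0.0247 with upper-quartile factors. Without 1 library Ntrk2 ran from -0.0939 to 0.11 and Adcyap1r1 from -0.0286 to 0.16. The log2 ratio difference of Mc3r/Mc4r ran from -0.42 to 0.32, of Npy1r/Npy5r from -0.29 to 0.24 and of Npy1r/Npy2r from -0.22 to 0.0921, and r of Agrp and Pomc from -0.24 to 0.29 and of Pomc and Cartpt from -0.45 to 0.15. With 3 against 4 libraries the permutation p cannot go below 0.0571. Exons of the comprehensive annotation, added after the data were seen, moved Agrp in Control from 4.30 to 3.47 CPM per kb. Where the cause of a change is not given by fewer libraries or genes, it was not tested. Depth limits Agrp, Mc4r and Ghsr most, at 58 to 302 counts per library.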

Other observations

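KO replicate 4 had the highest sums of secreted peptide and processing genes, carried by a few abundant genes. The summed CPM of the 31 other peptides that act on feeding was 3712 in that library, 2279 to 3005 in the other KO libraries and 2276 to 2464 in Control. The 12 processing genes summed to 2945 CPM there against 1541 to 2248 in the other 7 libraries. Its Oxt (oxytocin) level was 450 CPM, where KO replicates 1 to 3 had 156 to 394, its Avp (vasopressin) level 475 against 216 to 316, and its Sst (somatostatin) level 1021 against 431 to 778. Others of these lists were lowest there among the KO libraries, namely Crh at 1.29 CPM against 1.73 to 3.40, Adcyap1 at 81.2 against 89.5 to 94.9, Bdnf at 31.9 against 32.1 to 37.0 and Pcsk2 at 128 against 131 to 141. The 6 receptor genes summed to 56.9 to 63.7 CPM in KO and 50.3 to 56.6 in Control, a sum examined after its parts were seen and given without a test. The lowest KO sum was 56.86 CPM and the highest Control sum 56.65 CPM, so the groups barely parted. Of all single genes tested 3.01% were separated upward. Npy1r and Npy2r, with KO means of 21.9 and 22.7 CPM, made up most of the sum.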
